A study of Mus musculus with 8 samples.

Results

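Contactins are cell adhesion molecules of the immunoglobulin superfamily that are held in the membrane by a lipid anchor, and contactin-associated proteins are transmembrane members of the neurexin superfamily that pair with some of them. The 6 contactin genes Cntn1 to Cntn6 and the 3 contactin-associated protein genes Cntnap1, Cntnap2 and Cntnap4 were chosen by name and read from the gene symbol column of the deposited tables. All 9 were found among 24343 genes, all 9 had a mean of at least 1 FPKM (fragments scaled to transcript length and to the number of fragments mapped in the library), as did 13001 genes in all, and together they were listed with 15 of the 34535 transcripts.

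Messenger RNA of whole brains was sequenced from 3 mice of strain C57BL/6NCrl, aged 56 to 62 days, with 3 libraries each from mice 1 and 2 and 2 libraries from mouse 3. The mice formed a single condition with no treatment named, and the labels for these samples gave no sex and did not say what the library numbers stood for. Libraries of a mouse were therefore read as repeats of that mouse, means and SDs were taken over the 3 mice, and p-values between mice measured only the spread between libraries, which may be technical.

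In myelinated axons, contactin-1 and Caspr (encoded by Cntnap1) form a complex that joins the axon to the loops of myelin at the paranode, beside the node of Ranvier. The neighbouring juxtaparanode holds contactin-2 and Caspr2 (encoded by Cntnap2), which gather voltage-gated potassium channels there. The other contactins are mostly neuronal and take part in axon guidance and in the formation of synapses, in part by binding receptor tyrosine phosphatases and proteins of the amyloid precursor family.

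The members lay on 6 chromosomes of the mouse genome (build mm10), and 7 of the 9 genes spanned more than 200 kilobases. Cntn3 (chr6:102163306-102464667, minus strand), Cntn6 (chr6:104493044-104863405, plus strand) and Cntn4 (chr6:105677745-106699305, plus strand) lay within 4536 kilobases of chromosome 6. Cntnap2, on the same chromosome, was the longest of the 9, with 2241311 bases between the ends of its longer transcript (chr6:45060061-47301371, plus strand). Cntn1 (chr15:92051165-92341967, plus strand) had 3 transcripts with different starts, the second and the third 76963 and 110192 bases after the first, and all of these transcripts held the same 23 coding exons, or 3060 nucleotides of coding sequence. Cntn2 (chr1:132509425-132542940, minus strand), Cntn5 (chr9:9660891-10904775, minus strand), Cntnap1 (chr11:101176117-101190720, plus strand) and Cntnap4 (chr8:112570043-112882707, plus strand) were on chromosomes of their own.

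Because the starts of Cntn1 and Cntnap2 were far apart and their transcripts differed in level, the 250 bases before each of these starts are shown, 5′ to 3′ on the strand of the gene, from RefSeq (GRCm38.p6). Capitals mark 3 sets of letters known from promoters, TATAAA (the TATA box), CCAAT and GGGCGG (a GC box), on either strand, and no marked motif overlapped another. The Cntn1 windows are at chr15:92050915-92051164, chr15:92127878-92128127 and chr15:92161107-92161356, and the Cntnap2 windows at chr6:45059811-45060060 and chr6:47244146-47244395, all on the plus strand.
Cntn1 NM_001159648: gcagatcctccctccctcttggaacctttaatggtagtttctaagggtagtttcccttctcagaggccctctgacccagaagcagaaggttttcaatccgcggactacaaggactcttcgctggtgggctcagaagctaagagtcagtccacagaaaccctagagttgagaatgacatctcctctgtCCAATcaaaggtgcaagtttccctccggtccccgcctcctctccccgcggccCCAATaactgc
Cntn1 NM_007727: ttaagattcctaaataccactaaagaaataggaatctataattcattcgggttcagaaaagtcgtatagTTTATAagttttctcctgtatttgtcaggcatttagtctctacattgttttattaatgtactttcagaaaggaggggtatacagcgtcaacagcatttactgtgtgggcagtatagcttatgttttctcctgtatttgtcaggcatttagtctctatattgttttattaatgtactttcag
Cntn1 NM_001159647: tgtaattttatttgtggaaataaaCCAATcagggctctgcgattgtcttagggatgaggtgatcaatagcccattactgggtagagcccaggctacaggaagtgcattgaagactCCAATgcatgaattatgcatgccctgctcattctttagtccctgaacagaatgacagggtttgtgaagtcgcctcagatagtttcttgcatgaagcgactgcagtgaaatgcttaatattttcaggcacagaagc
Cntnap2 NM_001004357: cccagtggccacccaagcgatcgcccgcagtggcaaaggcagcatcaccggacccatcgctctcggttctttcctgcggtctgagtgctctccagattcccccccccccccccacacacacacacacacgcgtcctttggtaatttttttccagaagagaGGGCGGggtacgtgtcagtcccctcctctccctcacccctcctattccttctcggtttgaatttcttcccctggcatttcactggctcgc
Cntnap2 NM_025771: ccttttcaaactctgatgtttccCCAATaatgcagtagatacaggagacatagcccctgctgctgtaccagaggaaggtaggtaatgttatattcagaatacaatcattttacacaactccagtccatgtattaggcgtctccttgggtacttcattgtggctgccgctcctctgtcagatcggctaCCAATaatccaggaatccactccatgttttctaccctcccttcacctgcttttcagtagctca

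The windows differed in base composition. For Cntn1 the GC content was 53.6% before NM_001159648, with 7 CG dinucleotides, 43.6% before NM_001159647, with 3, and 32.8% before NM_007727, with 3. Only the last of these held TATAAA, and both others held CCAAT. For Cntnap2 the window before the long transcript had a GC content of 59.6%, 13 CG dinucleotides and 1 of the searched motifs, GGGCGG, whereas the window before the short transcript had 45.2%, 3 CG dinucleotides and CCAAT. Among 32817 mouse start windows of this length in the same table, the median GC content was 52.4% with 6 CG dinucleotides, and 12.4% held TATAAA, 33.8% CCAAT and 32.7% GGGCGG. These matches describe letters in a window and were not tested as binding sites. Starts were listed there for 7 of the 9 members, and Cntnap1 and Cntnap4 had none listed.

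Before the levels are given, the libraries of mouse 3 need a description because they stood apart. Between 1.31 and 2.02 gigabases (median 1.76) lay on transcripts per library, and mouse 3 was within this range. Library 2 of mouse 3 had low values for long transcripts: the 2601 genes with the longest transcripts (at least 4684 nucleotides) deviated from their mean over libraries by a median of −0.24 on the log2 scale there and by −0.06 in library 1 of mouse 3, against 0.02 to 0.07 in the other 6. Of the 9 members, 7 were among these genes. The fifth of genes with the shortest transcripts deviated the other way in mouse 3, by 0.20 in library 1 and 0.42 in library 2. Library 1 of mouse 2, which had the fewest gigabases, was at −0.34 for them, and the others were at −0.11 to −0.02. The summed FPKM of 8 oligodendrocyte and myelin markers was 4196 to 5131 in mouse 3 and 2228 to 2478 in mice 1 and 2, that of 4 astrocyte markers 422 to 439 against 294 to 309, that of 5 neuron markers 1449 to 1592 against 1669 to 1799, that of 4 microglia markers 51.5 to 52.5 against 44.2 to 49.9, and that of 5 blood markers 801 to 897 against 530 to 659. None of these markers was at 0 in every library. The sums hide differences within a list. Most of the oligodendrocyte sum was Mbp, at 2836 and 3495 FPKM in mouse 3 and 1253 to 1365 FPKM in the other libraries. Cnp of the same list was at 104% of mice 1 and 2 in mouse 3. Of the neuron markers, Syt1 in mouse 3 was at 60.4% of mice 1 and 2, Snap25 at 92.2% and Stmn2 at 103%. The part of transcript length or of cell makeup in the results below was not tested, except where values without library 2 of mouse 3 or without the length trend are given.

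The 9 genes covered a 55.1-fold range of mean FPKM. Their summed level was 175 ± 13.4 FPKM (SD, n = 3 mice), of which Cntn1 made up 44.7%. In whole tissue such a level mixes cell types, and fewer cells of a type cannot be told apart from less RNA per cell.

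Among the paranodal genes, Cntn1, which encodes the axonal contactin of the paranodal junction and is also made widely by neurons, was the highest. Its level was 79.2, 81.0 and 82.0 FPKM in the libraries of mouse 1, 80.2, 82.3 and 85.0 in those of mouse 2, and 75.0 and 69.0 in those of mouse 3. The mean of 78.4 ± 5.62 FPKM (SD, n = 3) was above that of 94.2% of the 13001 genes tested, and both libraries of mouse 3 were below the other 6. Cntnap1, whose protein Caspr is the partner of contactin-1, was the second highest. It was at 35.1, 35.5 and 37.7 FPKM in mouse 1, 29.8, 36.5 and 38.1 in mouse 2, and 37.8 and 29.7 in mouse 3, with a mean of 34.9 ± 1.18 FPKM. Here each of mice 2 and 3 had 1 library near 30 FPKM and 1 near 38, so the libraries of the 3 mice overlapped.

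The juxtaparanodal genes came next. Cntnap2, which encodes the neuronal protein Caspr2, was at 20.5, 19.6 and 20.3 FPKM in mouse 1, 20.3, 19.0 and 19.0 in mouse 2, and 16.2 and 15.1 in mouse 3. Its mean was 18.4 ± 2.40 FPKM, and the lowest library of mice 1 and 2 was above both libraries of mouse 3. Cntn2, which encodes a contactin found on both axons and oligodendrocytes, was at 15.4, 15.0 and 16.1 FPKM in mouse 1, 13.2, 15.3 and 15.5 in mouse 2, and 15.3 and 11.1 in mouse 3, with a mean of 14.4 ± 1.18 FPKM. Only library 2 of mouse 3 fell below the range of the others for Cntn2.

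The remaining contactins were lower. Cntn4, whose protein guides axons in the olfactory and visual systems, was at 9.65, 10.7 and 11.1 FPKM in mouse 1, 9.78, 11.5 and 10.6 in mouse 2, and 8.70 and 8.11 in mouse 3 (mean 9.83 ± 1.24), with mouse 3 below all other libraries. Cntn6, known for its expression in the cerebellum, was at 6.81, 8.00 and 7.91 FPKM in mouse 1, 7.10, 7.13 and 7.12 in mouse 2, and 7.53 and 7.19 in mouse 3 (mean 7.35 ± 0.227). Its SD between mice was the smallest of the 9 relative to the mean, at 3.09%, and mouse 3 lay within the range of mouse 1. Cntn3, another contactin of neurons, was at 4.72, 4.45 and 4.46 FPKM in mouse 1, 4.92, 4.43 and 4.20 in mouse 2, and 3.88 and 2.79 in mouse 3 (mean 4.13 ± 0.691), again with mouse 3 lowest. Cntn5, a contactin of sensory and other neurons, was the lowest member, at 1.48, 1.49 and 1.32 FPKM in mouse 1, 1.95, 1.57 and 1.60 in mouse 2, and 1.38 and 0.888 in mouse 3 (mean 1.42 ± 0.287). Only 5.08% of the tested genes had a lower mean than Cntn5, and library 1 of mouse 3 was within the range of mouse 1. The third contactin-associated protein gene, Cntnap4, whose product is found at synapses of interneurons, was at 7.41, 6.98 and 6.82 FPKM in mouse 1, 6.63, 7.96 and 7.22 in mouse 2, and 6.27 and 3.93 in mouse 3 (mean 6.48 ± 1.20). Library 2 of mouse 3 was far below the other 7.

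**Figure D1:**
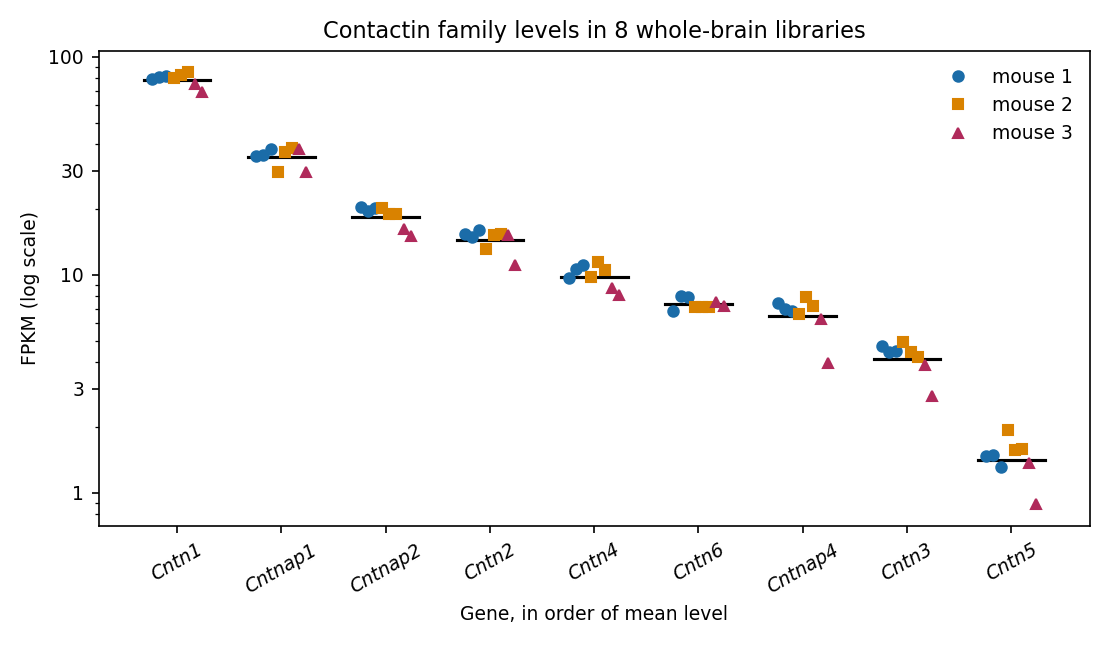
FPKM (log axis) of the 9 members in every library, with genes in order of mean level. Points are libraries in the order of their numbers, circles for mouse 1, squares for mouse 2 and triangles for mouse 3, and the bar is the mean over the 3 mice. Levels run from 78.4 FPKM for Cntn1 to 1.42 FPKM for Cntn5, and in 5 genes both triangles lie below all other points.

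In order of mean FPKM the genes were Cntn1, Cntnap1, Cntnap2, Cntn2, Cntn4, Cntn6, Cntnap4, Cntn3 and Cntn5. Of the 8 pairs of neighbours in this order, 7 kept it in all 8 libraries. Cntn6 was above Cntnap4 in only 5 libraries and in 2 of the 3 mice, by a mean of 0.21 ± 0.31 on the log2 scale (SD, n = 3), so these genes did not differ beyond their spread. The library values of neighbours did not overlap for Cntn1 and Cntnap1 (2.25-fold apart), Cntnap1 and Cntnap2 (1.90-fold), Cntn4 and Cntn6 (1.33-fold), and Cntn3 and Cntn5 (2.93-fold). With 3 mice, a two-sided exact sign-flip permutation test of a pair cannot give a p below 0.25, which all pairs except Cntn6 and Cntnap4 (p = 0.5) reached. Without library 2 of mouse 3, the means were between 79.4 FPKM for Cntn1 and 1.51 FPKM for Cntn5, and Cntnap4 was at 6.87 and Cntn3 at 4.31 FPKM.

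To ask whether the members differed between the mice, the moderated F-test of limma was fitted to log2(FPKM + 1) of all 13001 genes, and adjusted p-values (Benjamini-Hochberg) were called at 0.05. Of the 9 members 1, Cntnap2, passed, where 26.9% of all genes did, and 11.9% of all genes both passed and were lower in mouse 3. Cntnap2 in mouse 3 was at 79.2% of its mean FPKM in mice 1 and 2, a difference of −0.32 ± 0.07 (log2(FPKM + 1), SE; adjusted p = 0.0214 by limma). Mice 1 and 2 differed from each other by 0.05 ± 0.07 in the same units. The call was lost when library 1, 2 or 3 of mouse 1 was left out (differences of −0.31, −0.33 and −0.31, limma adjusted p = 0.0567, 0.0510 and 0.0626) and when library 2 of mouse 3 was left out (−0.27, limma adjusted p = 0.119), each with fewer libraries in the fit. It was also lost when the trend with transcript length was removed from each library (difference −0.14, adjusted p = 0.257). Where 1 library of mouse 3 was left out, the other was assumed to vary like the libraries of the other mice.

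The other 8 members did not pass, which does not show that their levels were the same in the mice. The largest differences of mouse 3 from mice 1 and 2 among them were −0.45 ± 0.14 for Cntnap4, −0.36 ± 0.11 for Cntn3 and −0.29 ± 0.08 for Cntn4 (log2(FPKM + 1), SE), with limma adjusted p of 0.0831, 0.0757 and 0.0674. For Cntn5, Cntn2 and Cntn1 the differences were −0.27 ± 0.12, −0.20 ± 0.11 and −0.18 ± 0.07 (limma adjusted p = 0.166, 0.357 and 0.156). Cntnap1 at −0.07 ± 0.12 and Cntn6 at 0.00 ± 0.08 were the closest to no difference (limma adjusted p = 0.792 and 0.723). Without library 1 of mouse 3, which leaves that mouse 1 library, the differences of Cntn3, Cntn2 and Cntnap4 were −0.55, −0.41 and −0.73. Cntn4 passed when library 1 of mouse 2 was left out (limma adjusted p = 0.0354), where 31.7% of all genes did. After median centring and with only its highest transcript counted, Cntn4 also passed (limma adjusted p = 0.0288 and 0.0368), where 30.7% and 19.6% of all genes did. Scaled to TPM (a unit in which the values of each library sum to the same total), where the median difference of all genes was −0.26, all 9 members were lower in mouse 3, Cntn6 at −0.28 included. In TPM 6 members passed, as did 44.0% of all genes. In FPKM the median difference was −0.27 over the members and 0.02 over all genes tested.

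Both libraries of mouse 3 were below the other 6 in 5 of the 9 members (Cntn1, Cntn3, Cntn4, Cntnap2 and Cntnap4), compared with 21.7% of all genes and 47.7% of the 2601 genes with the longest transcripts, and in none were both above. Once the length trend was removed this held for 3 of 9, namely Cntn4, Cntnap2 and Cntnap4, compared with 21.9% of all genes. The median difference of the members was then −0.14, and Cntn1 and Cntn2 were at −0.01 and 0.08. Library 2 of mouse 3 held the lowest value of 8 members, all but Cntn6. Leaving it out moved the difference of Cntnap4 from −0.45 to −0.17, that of Cntn3 from −0.36 to −0.18, and that of Cntn2 from −0.20 to 0.02. Between mice the coefficient of variation had a median of 12.6% for the members and 12.3% for all genes tested.

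**Figure D2:**
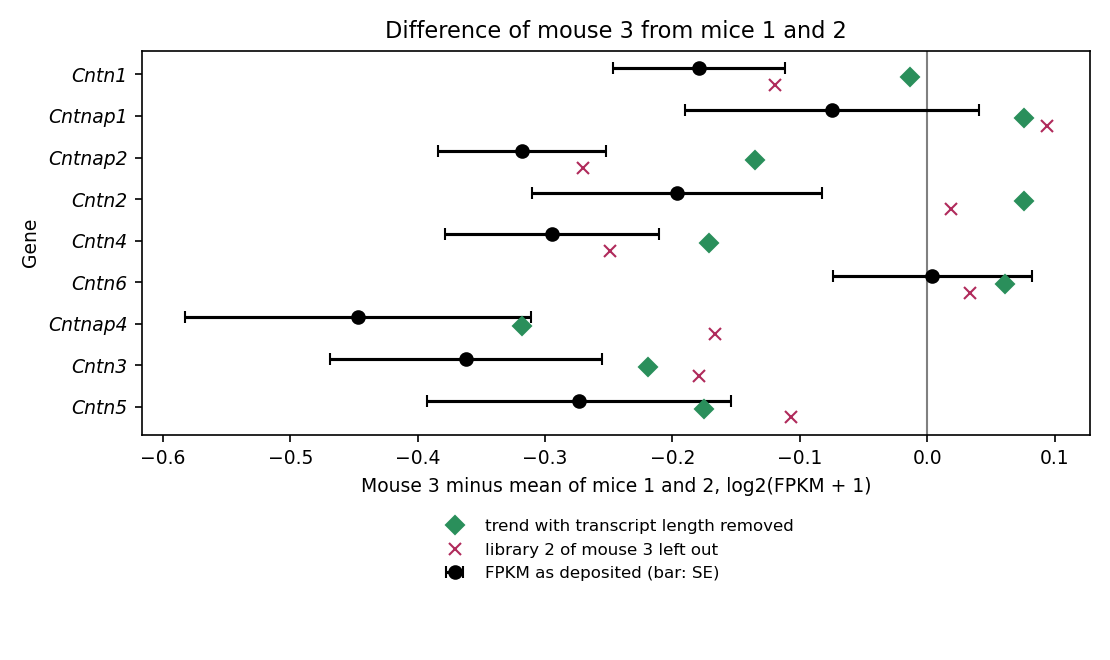
Mouse 3 minus the mean of mice 1 and 2 in log2(FPKM + 1) for the 9 members, in order of mean level. Circles with SE bars are the deposited FPKM, diamonds the values after the trend with transcript length was removed, and crosses those without library 2 of mouse 3. The circle of Cntnap2 is at −0.32, its diamond at −0.14 and its cross at −0.27, and most diamonds and crosses lie closer to 0 than their circles.

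The transcripts of 4 members were listed apart, and in each a single one led. The estimation divided reads between overlapping transcripts, so these shares are less certain than the summed levels. For Cntn1, NM_001159648, which has the most upstream start, held 70.6 ± 1.73% of the gene's FPKM (SD, n = 3; 66.9% to 78.6% in single libraries), or 55.4 ± 5.10 FPKM. NM_001159647, which starts last, held 26.6 ± 1.13% (20.8 FPKM), and NM_007727, whose window held TATAAA, held 2.87 ± 0.723% (2.21 FPKM). The order of these 3 transcripts was the same in every library.

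For Cntnap2, NM_001004357 encodes the full-length protein in 24 coding exons (3996 nucleotides), and NM_025771 (chr6:47244396-47301371) starts far downstream and has 3 coding exons (324 nucleotides), 2 of them shared with the long form. The long form was at 14.9, 15.6 and 15.4 FPKM in mouse 1, 15.0, 15.1 and 14.6 in mouse 2, and 13.4 and 9.27 in mouse 3. The short form was at 5.64, 4.01 and 4.95 FPKM in mouse 1, 5.31, 3.89 and 4.35 in mouse 2, and 2.83 and 5.83 in mouse 3. The long form thus held 74.9 ± 2.55% of the gene's FPKM, with both the highest share (82.6%) and the lowest (61.4%) in libraries of mouse 3. Taken alone, the long form did not pass the test between mice (−0.40 on the log2 scale in mouse 3, limma adjusted p = 0.0862).

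For Cntn4, NM_001109749, with 22 coding exons, held 76.6 ± 3.10% of the FPKM, and NM_173004, with 16 coding exons of which 15 are shared with it, held 17.6 ± 3.56%. The third, NM_001109751, held 5.77 ± 1.40% and was estimated at close to 0 in library 2 of mouse 3. For Cntn5, NM_001170787 held 91.9 ± 4.71%, and NM_001033359, which starts 49 bases downstream, was at 0.566 FPKM in library 1 of mouse 1, 0.369 in library 2 of mouse 2 and below 0.1 FPKM in the other 6. No leading share passed a two-sided exact permutation test between the mice, over the 280 groupings of the libraries (adjusted p = 0.971 for each of the 4 genes, where the smallest possible raw p was 0.00357). This does not show that the shares were the same.

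**Figure D3:**
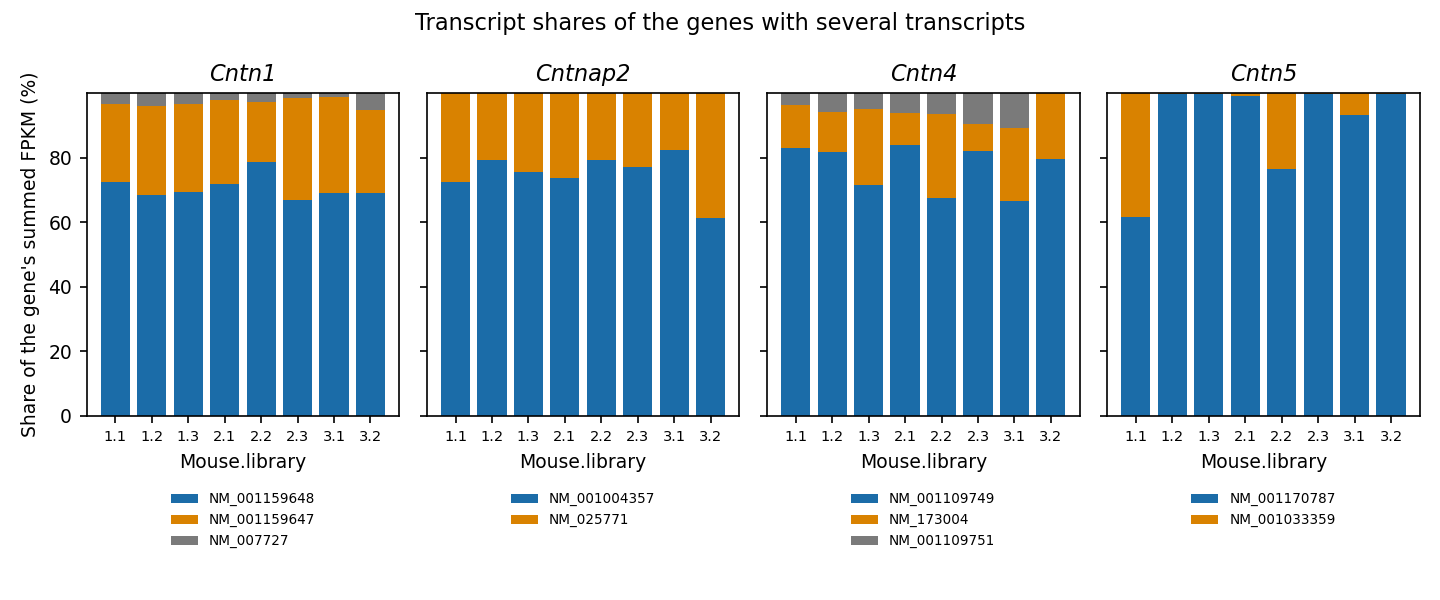
Share of each transcript in the summed FPKM of its gene (percent) in every library, labelled as mouse and library number. Stacked bars give the 4 members with several transcripts, and blue marks the leading one. The blue share of Cntn1 stays between 66.9% and 78.6%, whereas that of Cntn5 ranges from 61.6% to nearly all.

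Ratios of partner genes within a library do not depend on how libraries were scaled. For the paranodal pair, Cntn1 was above Cntnap1 by 1.17 ± 0.08 on the log2 scale of FPKM (SD, n = 3), or 2.25-fold, and by 1.99-fold to 2.69-fold in single libraries. For the juxtaparanodal pair, Cntn2 was below Cntnap2, with a log2 ratio of −0.35 ± 0.07 and library values from −0.62 to −0.09. The direction of this pair depended on the transcripts counted: with only the highest transcript of each gene the ratio was 0.07. Neither ratio passed the test between the mice (adjusted p = 0.711 for both, two-sided exact permutation test, 4 pairs), which does not show that the ratios were the same.

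The remaining ratios set a contactin against a receptor tyrosine phosphatase that binds it. Cntn1 was above Ptprz1, a phosphatase made by glia, by a log2 ratio of 1.21 ± 0.22. This ratio was 1.35, 1.34 and 1.38 in mouse 1, 1.27, 1.28 and 1.38 in mouse 2, and 0.80 and 1.12 in mouse 3. Both libraries of mouse 3 were thus the lowest, and the difference between mice gave p = 0.0143 in the exact permutation test and 0.0571 after adjustment over the 4 pairs. Ptprz1 itself was at 43.1 and 31.7 FPKM in mouse 3 and at 31.0 to 33.9 FPKM in the other 6 libraries, so that library 1 of mouse 3 stood out for Ptprz1 as well. Without library 3 of mouse 2 the adjusted p was 0.0381 (exact permutation test). Without any other single library of mice 1 or 2 it was 0.152 to 0.267 in the same test. Without library 2 of mouse 3 the remaining ratio of that mouse was 0.80, and without library 1 it was 1.12, each resting on 1 library. Cntn4 and Ptprg were at similar FPKM, with a log2 ratio of 0.14 ± 0.10 (−0.02 to 0.30 in single libraries; adjusted p = 0.557, exact permutation test), and with only the highest transcript of each gene the ratio was −0.25.

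**Figure D4:**
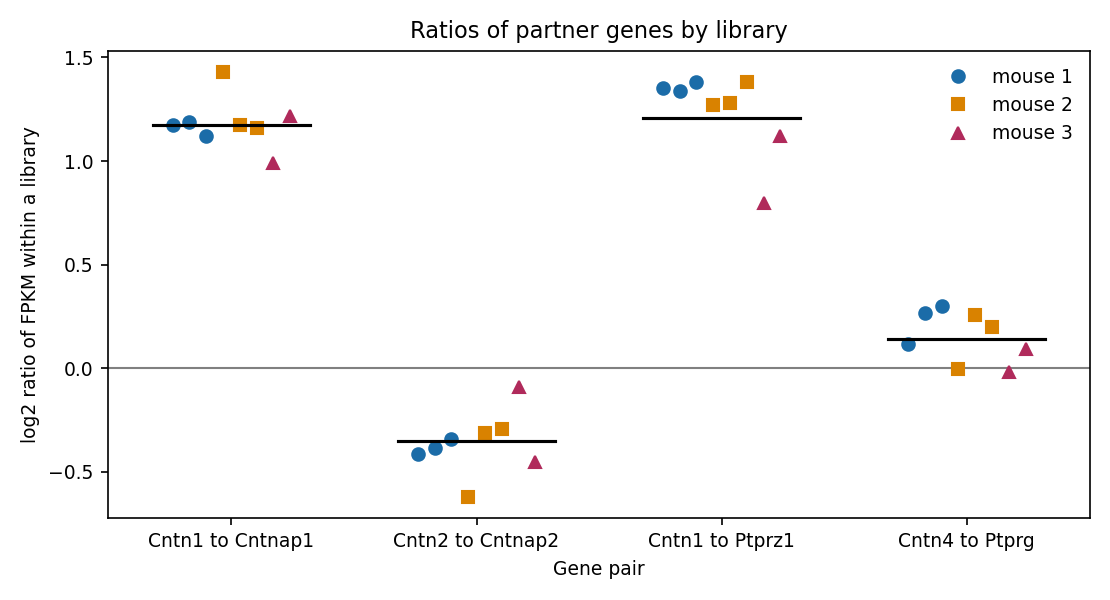
log2 ratio of FPKM for 4 gene pairs in every library, circles for mouse 1, squares for mouse 2 and triangles for mouse 3, with a bar at the mean over mice. The ratio of Cntn1 to Ptprz1 is 0.80 and 1.12 in mouse 3 and at least 1.27 in the other libraries, and the other 3 ratios overlap between the mice.

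The other contactin-associated protein genes, which were not members, were low. Cntnap5a was the highest of the 4 at 4.91 ± 0.803 FPKM and Cntnap5c the lowest at 1.19 ± 0.166 FPKM. None of the 4 passed limma's test between mice, where 26.9% of all genes did. Their median difference in mouse 3 was −0.28, close to the −0.27 of the members.

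Among the 4 L1 family genes, whose proteins bind contactins at the axon surface, 2 passed the test and both were lower in mouse 3. Of all genes, 26.9% passed and 11.9% passed and were lower in mouse 3. L1cam, an adhesion molecule of growing axons, was at 18.4 ± 4.55 FPKM, with 18.9 to 22.4 FPKM in mice 1 and 2 against 15.6 and 10.6 in mouse 3 (limma adjusted p = 0.0158). Chl1, its close homologue, was at 20.3 ± 4.41 FPKM, with 22.0 to 24.5 FPKM against 16.5 and 13.9 (limma adjusted p = 0.00675). Nrcam, found at nodes, was the highest of the family at 40.4 ± 4.41 FPKM and did not pass. None of the 3 phosphatase genes passed, from Ptpra at 47.2 ± 3.49 FPKM to Ptprg at 8.89 ± 0.670 FPKM.

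Of the 5 extracellular and amyloid family partners, App and Aplp2, which encode relatives of one amyloid family, passed and were lower in mouse 3. App, the highest, was at 413 ± 69.0 FPKM, with 436 to 473 FPKM in mice 1 and 2 and 353 and 315 in mouse 3, and Tnc, the matrix protein tenascin-C, was the lowest at 1.32 ± 0.209 FPKM. Of the scaffold genes of the node and its flanks, 8 of 9 were found by symbol, and 3 passed. Among all genes 26.9% passed, and 11.9% passed and were lower in mouse 3. Sptan1 (alpha spectrin) and Adam22 (a receptor of the juxtaparanode) were lower in mouse 3, at 66.7% and 70.1% of mice 1 and 2, and Dlg4 (the scaffold protein PSD-95) was higher, at 122%. Sptbn4, a spectrin of the node, was the lowest of that list at 20.6 ± 3.08 FPKM.

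Of 6 axonal channel genes 4 passed, where 26.9% of all genes did. Kcna1 and Kcna2, the potassium channels gathered with Caspr2 at juxtaparanodes, were at 26.2 ± 4.90 and 28.0 ± 3.88 FPKM and were lower in mouse 3, at 70.8% and 78.0% of mice 1 and 2. The sodium channel gene Scn8a was also lower, at 64.3%, and Kcnab2, the beta subunit and the highest of the list at 89.5 ± 10.4 FPKM, was higher, at 121%. Kcnq3, a potassium channel subunit of the node, was the lowest at 10.6 ± 0.818 FPKM. In the marker lists, 3 of 8 oligodendrocyte and myelin genes, 4 of 4 astrocyte genes, 1 of 4 microglia genes and 1 of 5 blood genes passed and were higher in mouse 3, 2 of 5 neuron genes and 1 of 5 choroid plexus genes passed and were lower, and none of 3 oligodendrocyte precursor genes passed. Of 5 pituitary genes 1 reached 1 FPKM, and it did not pass. Over all genes, 26.9% passed and 11.9% passed and were lower in mouse 3, so that 44.1% of the calls were lower (85.1% in TPM).

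Without library 2 of mouse 3, that mouse keeps 1 library, so only the sizes of differences are given. The 11 partner genes and 12 markers called were picked in a fit that included the remaining libraries. That their differences kept their direction is therefore no separate evidence. The differences of Dlg4 and Kcnab2 were then 0.33 and 0.33 (0.29 and 0.28 with all libraries), that of Chl1 was −0.45 (−0.56), and that of Scn8a was −0.36 (−0.63).

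Removing the length trend brought the differences of several partner genes closer to 0. On the log2 scale Scn8a went from −0.63 to −0.33, Kcna1 from −0.48 to −0.22, Adam22 from −0.50 to −0.26, Sptan1 from −0.60 to −0.36 and Chl1 from −0.56 to −0.32, and these still passed, whereas Kcna2 at −0.05 did not (limma adjusted p = 0.656). In TPM, where the median of all genes was −0.26, the higher values of Dlg4 and Kcnab2 were lost, with differences of −0.01 and −0.02. Of the 12 markers 6 no longer passed in TPM, namely the 4 astrocyte genes (0.16 for Aqp4 to 0.23 for Slc1a3), Cx3cr1 (0.08) and Mal (0.22). With the library number as a block, 8 of the 11 partner genes and all 12 markers passed. Of all genes, 22.0% passed with the length trend removed, 44.0% in TPM and 26.0% with the block. The partner genes and markers counted here had been picked as called in the main fit, so their higher shares are no separate evidence.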

How the data were processed

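The authors extracted total RNA from whole brains, made libraries with a messenger RNA kit and, per the labels' processing notes, used TopHat, Cufflinks and build mm10; versions, strand setting and read length are not given in the sources used here. The deposited values were FPKM per RefSeq transcript. The deposited coverage, a signal of read depth per base, served for depth and for a second reading of the leading shares. The number of reads behind a value is therefore unknown, and precision is given as the spread between libraries and mice. FPKM was summed over the transcripts of a gene. Mice were compared with limma 3.58.1 (R 4.3.3) on log2(FPKM + 1) with a trend in the variance, for genes whose mean reached 1 FPKM. The fit was first tested on simulated data. The length trend was a lowess curve of each library's deviations on transcript length. Named were all members and their transcripts, the called, highest and lowest genes of the partner lists, and the 2 genes of nearest profile. Members and lists were chosen with earlier results of these data known. Exons came from GENCODE M21. Antisense genes overlap exons of Cntn5 (Gm32710) and Cntnap4 (Gm45904), and their reads may not be told apart. Estimation had failed for 8 transcript values, 0 of them of members.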

Additional observations from a re-analysis of the deposited data

Results flagged for a closer look

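In each of 17 measures (the levels, leading shares and ratios of the members), the gap between the lowest or highest library and its nearest neighbour was set against the whole range. In 2 of them 1 library stood apart (a gap above Dixon's critical value for 8 libraries), where chance alone flags about 1 measure in 20. The level of Cntnap4 was 3.93 FPKM in library 2 of mouse 3 and 6.27 to 7.96 FPKM in the other 7. The log2 ratio of Cntn1 to Ptprz1 was 0.80 in library 1 of mouse 3 and 1.12 to 1.38 in the other 7. With the length trend removed, Cntnap4 was still apart in the same library, at 4.46 FPKM against 6.51 to 7.76 in the others. The ratio in library 1 of mouse 3 was then 0.79 against 1.01 to 1.40 in the others, and no longer stood apart by this measure. The part of cell makeup in either was not tested.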

How the results depend on the processing

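Among the 13001 genes, 3496 differed between the mice, 1 of them a member. This count was 5726 with 6 members after scaling to TPM, where 85.1% of the calls were lower in mouse 3 (44.1% with FPKM) and the median of all genes moved to −0.26, against −0.60 for the members. Members called were 2 with a minimum of 5 FPKM, 2 after median centring and 0 after removal of the length trend. Of all genes tested, 37.8%, 30.7% and 22.0% were called in these settings. Leaving out 1 library at a time gave 372 to 4131 genes and 0 to 4 members, with 372 genes and no member without library 2 of mouse 3. With the pseudocount at 0.1, no filter on low values or no variance trend, 1 member was called, and with the highest transcript alone this was Cntn4 (limma adjusted p = 0.0368) in place of Cntnap2 (0.0862). The shares of all genes called in these settings were, in turn, 27.0%, 12.7%, 25.5% and 19.6%. Cntnap2 was lower in mouse 3 under all 17 alternatives and passed under 11 (limma adjusted p 0.00275 to 0.257). Cntn1, Cntn4 and Cntnap4 were also lower under all 17, and Cntn3 and Cntn5 under all 16 that included them. These alternatives reuse the same libraries and are not independent. With only the highest transcript, the log2 ratio of Cntn2 to Cntnap2 turned to 0.0713 and that of Cntn4 to Ptprg to −0.25. The ratio of Cntn1 to Ptprz1 was 1.15 to 1.26 with 1 library left out (adjusted p 0.0381 to 0.267, exact permutation test) and passed at 1.20 without library 3 of mouse 2. Cntn2 and Cntnap2 also swapped places in the order of levels, and 7 of 9 members kept their rank. Leading shares were also taken from coverage multiplied by transcript length, which gives long transcripts more weight. They were then 70.1% for Cntn1, 85.3% for Cntn4, 92.8% for Cntn5 and 85.7% for Cntnap2. From FPKM they were 70.6%, 76.6%, 91.9% and 74.9%. With the library number as a replicate block, 3385 genes (26.0%) and 1 member were called. Libraries of the same number in different mice correlated in their deviations by 0.00276 to 0.107, all positive, and those of different numbers by −0.135 to 0.0645. Of 8 libraries 5 correlated best with their own number, though the libraries of mouse 3 mirror each other and are not independent here. The main fit did not pair the numbers, and whether they stand for pairs was not settled. The cause of these changes was not tested. Values rest on 3 mice, and the read counts behind them are unknown.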

Other observations

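The gene whose profile over the 8 libraries (centred log2(FPKM + 1)) was nearest to that of a member, by the root mean square difference, is given here as a description only, since the 8 libraries came from 3 mice. For Cntnap2 it was Edil3 (0.0219 on the log2 scale, where the median over all genes tested was 0.205), followed by Zfp629 (0.0255). For Cntn1 it was Slc39a9 (0.0240), followed by Gtf3c4 (0.0258). The profile of Cntn2 was nearest to Smpd3 (0.0254) and Vat1, that of Cntn3 to Cpeb2 and Calcoco1, that of Cntn4 to Drosha and Cnot4, and that of Cntn5 to Arhgap10 and Ankrd11. Cntn6 was nearest to Pfn1 and Impdh2, Cntnap1 to Zfp574 (0.0213) and Carm1, and Cntnap4 to Mdn1 (0.0478) and Arfgef3, its nearest distance being the widest of the 9. No member of the family was among the 2 nearest genes of another member.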
